A study of Mus musculus with 6 samples.

Results

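AP-1 subunits and other immediate-early genes were followed in the livers of 3 TLR3-/- and 3 TLR3wt mice, on 1 oligonucleotide array per mouse. The set of 10 genes (Fos, Jun, Junb, Jund, Egr1, Atf3, Ier2, Btg2, Klf6 and Myc) was given by name, and each was matched to the array probe sets that carry its symbol and no other. All 10 were found, of 19938 genes with such a probe set, and each had exactly 1 probe set. All mice were 3 months old, untreated, and bred by the submitters under specific-pathogen-free conditions. The series names the strain as C57Bl/6, and the labels say neither whether the groups were littermates nor that the deletion was limited to a cell type. TLR3 senses double-stranded RNA in endosomes, and the question put to these genes is whether their basal transcripts in liver depend on it.

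Immediate-early genes are transcribed within minutes of a growth factor, cytokine or stress signal, without new protein synthesis, and most of their transcripts decay quickly. MAP kinases carry the signal to factors already bound at the promoters. AP-1 is a dimer of Jun and Fos family proteins, and in hepatocytes c-Jun supports proliferation and survival during regeneration. The transcripts are low in resting liver and are readily induced by feeding, hormones, injury and tissue handling.

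Promoter stretches of 5 of these genes are shown because AP-1 and its ATF and CREB relatives bind the cyclic AMP response element (CRE), and AP-1 the related TPA-response element, so that some of these genes carry elements that the proteins of others can bind. They come from RefSeq (GRCm38.p6), which gave an entry for 7 of the 10 genes, and not for Egr1, Ier2 and Myc. Each runs 5′ to 3′ on the strand of the gene and ends at the base before the annotated start. Capitals mark the CRE TGACGTCA, the CRE core TGACGT and the CRE variant TGACATCA, read on both strands.
Fos, chr12:85473800-85473889, plus strand: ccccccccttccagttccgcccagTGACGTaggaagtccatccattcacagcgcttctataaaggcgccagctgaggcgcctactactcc
Jun, chr4:95052223-95052312, minus strand: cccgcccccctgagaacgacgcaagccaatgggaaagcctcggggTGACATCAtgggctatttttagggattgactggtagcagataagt
Btg2, chr1:134079156-134079345, minus strand: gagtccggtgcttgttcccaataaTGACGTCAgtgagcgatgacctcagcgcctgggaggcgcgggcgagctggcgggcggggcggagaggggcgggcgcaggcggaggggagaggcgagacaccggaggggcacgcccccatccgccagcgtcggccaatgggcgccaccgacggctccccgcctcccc
Klf6, chr13:5861349-5861488, plus strand: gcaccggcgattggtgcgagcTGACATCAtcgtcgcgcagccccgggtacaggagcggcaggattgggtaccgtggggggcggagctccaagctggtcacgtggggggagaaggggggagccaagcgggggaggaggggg
Atf3, chr1:191183334-191183393, minus strand: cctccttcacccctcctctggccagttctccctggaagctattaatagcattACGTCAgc

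The motif search covered the 250 bases before the start of the 7 genes and of all 32851 RefSeq promoters of that length. The letters TGACGTCA stood in the window of Btg2, 166 to 159 bases before the start, and in 1.55% of all windows. The shorter TGACGT, which TGACGTCA contains, stood in those of Fos, Btg2 and Atf3 and in 6.47% of all windows. TGACATCA stood in those of Jun and Klf6, 45 to 38 and 119 to 112 bases before the start, and in 2.93% of all. The motifs were chosen with earlier results known or the sequences seen, so setting them beside these shares is no test. The TPA-response element TGANTCA was in none of the 7 windows (6.75% of all), and neither was the CArG box bound by SRF (1.47% of all). The TATA box TATAAA was in that of Fos alone among the 7 (12.4% of all). Junb and Jund held none of these letters in this window. For each of the 7 genes, the absence of a motif from this window says nothing of sites elsewhere.

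Signals are log2 RMA values, in which a difference of 1 is a doubling, and the lowest value of the deposited table on every array is exactly 5, called the floor here. On each array 57.2% to 57.6% of probe sets were at the floor, and array medians over the 16639 tested probe sets lay between 6.54 and 6.59. The Tlr3 probe set was at the floor on all 6 arrays and thus gave no check of the genotype labels. The markers of the labelled tissue were present. All 10 hepatocyte markers with a probe set of their own, such as Alb and Ttr, were above the floor in every mouse, while 10 of 11 lymphocyte markers, 10 of 10 neutrophil markers and 6 of 7 cholangiocyte markers were at the floor on all arrays.

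No immediate-early gene of the set passed limma's test after Benjamini-Hochberg adjustment over all tested probe sets (adjusted p 0.197 to 0.838 for the 9 genes tested). At an unadjusted p under 0.05, 4 of the 9 stood out, with Jun, Jund and Btg2 lower and Ier2 higher in TLR3-/- livers, where 14.5% of all tested probe sets reached that level (5.25% lower, 9.21% higher). Of all tested probe sets, 31 passed the adjusted threshold (0.186%), 23 higher (0.138%) and 8 lower (0.0481%), or 8 higher and 6 lower after centring the arrays. With the probe sets that never left the floor in the fit as well, 0 of 35557 passed limma's adjusted threshold and 2018 had an unadjusted p under 0.05. The groups did not overlap in 2 of the 9 genes, Jund and Btg2, both lower in TLR3-/- livers, against 20.1% of all tested probe sets in either direction. The group mean was lower in TLR3-/- livers for 8 of the 9 genes, and for 41.2% of all tested probe sets. The median difference of the 9 genes (TLR3-/- minus TLR3wt) was -0.18 on the log2 scale, against 0.03 over all tested probe sets. Of these 9 genes, 5 (Jun, Junb, Jund, Ier2 and Klf6) were above the floor in all 6 mice. The floor values of Fos, Egr1, Btg2 and Myc all lay in the group with the lower mean, so their differences can be understated. Where floor values lie in the higher group or in both groups, as in some genes below, the difference can also be overstated.

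**Figure D1:**
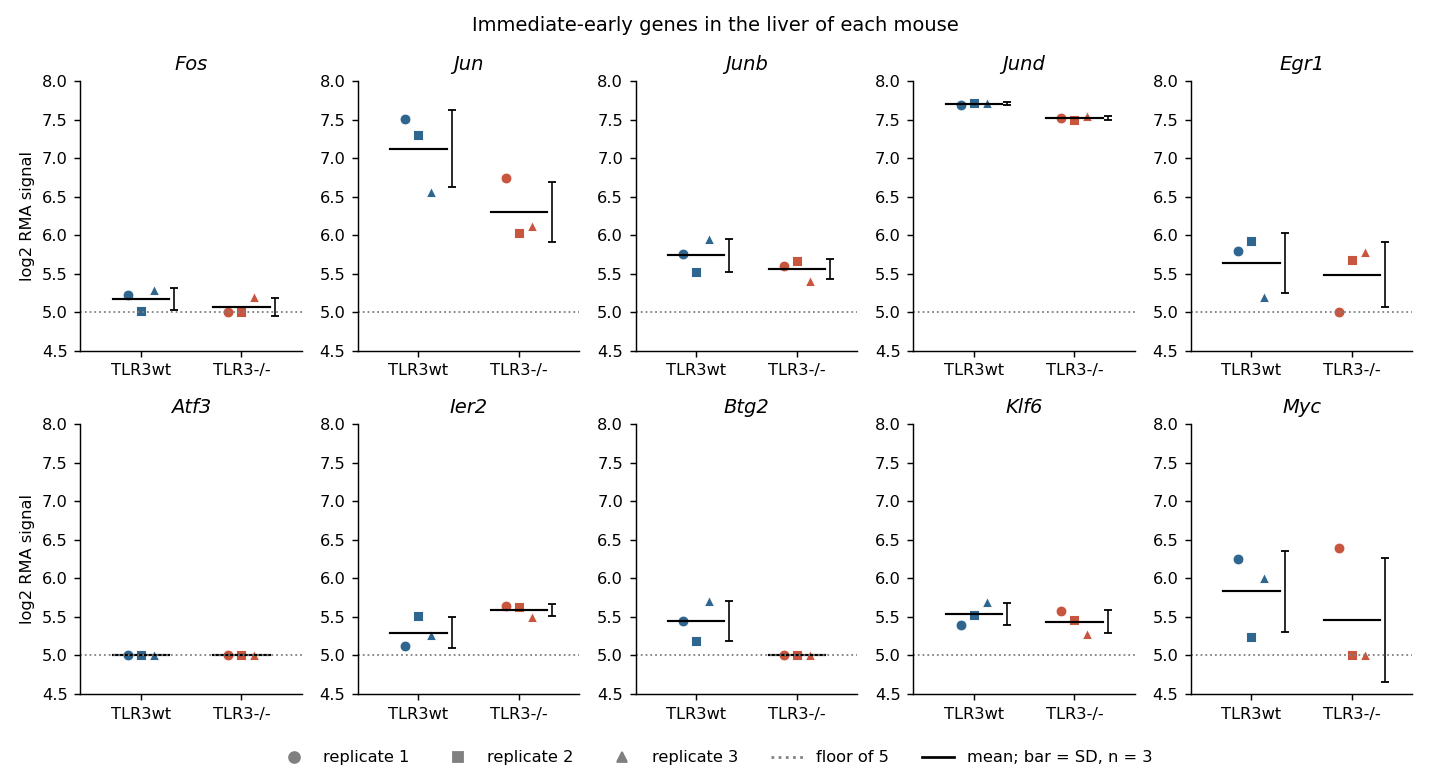
Log2 RMA signal (vertical axis) of the 10 genes in each mouse, TLR3wt in blue and TLR3-/- in red, with a marker shape for each replicate number, a black line at the group mean, a bar of 1 SD (n = 3) and a dotted line at the floor of 5. Jund and Btg2 are the genes whose groups do not overlap, Atf3 lies at the floor in all mice, and Jun, Egr1 and Myc spread most within groups.

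Among the Jun subunits, the DNA-binding partners that form AP-1 with or without a Fos protein, the group difference was widest for Jun. Jun (probe set 10514466), which encodes c-Jun, was 6.74, 6.03 and 6.12 in TLR3-/- replicates 1 to 3 and 7.51, 7.30 and 6.56 in TLR3wt replicates 1 to 3. The groups overlapped, since TLR3wt replicate 3 lay below TLR3-/- replicate 1. The difference was -0.83 ± 0.30 (log2, SE, 95% interval -1.55 to -0.11), which is 56.4% of the TLR3wt signal (limma unadjusted p = 0.0307, adjusted p = 0.291). When 1 mouse was left out it ranged from -1.11 without TLR3wt replicate 3 to -0.63 without TLR3wt replicate 1 (limma adjusted p 0.167 to 0.538 over the 6 fits).

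Jund (probe set 10572456) encodes JunD, the Jun protein that is made constitutively and restrains proliferation in several cell types. Its signal was 7.52, 7.50 and 7.55 in TLR3-/- and 7.69, 7.71 and 7.72 in TLR3wt livers. The groups did not overlap, as in 7.04% of all tested probe sets in this direction. The difference was small, -0.18 ± 0.05 (log2, SE, 95% interval -0.30 to -0.06), or 88.2% of the TLR3wt signal (limma unadjusted p = 0.00892, adjusted p = 0.197). It lay between -0.19 and -0.17 when any 1 mouse was left out. The mice of a group were nearly alike, with a pooled SD within groups of 0.02, and 1.78% of tested probe sets had a smaller SD.

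Junb (probe set 10580282) encodes JunB, which can oppose c-Jun at some promoters. It was 5.60, 5.67 and 5.41 in TLR3-/- and 5.75, 5.52 and 5.95 in TLR3wt livers. The groups overlapped, and the interval of the difference held both signs (-0.18 ± 0.13, SE, 95% interval -0.49 to 0.13, limma adjusted p = 0.569). When 1 mouse was left out it ranged from -0.29 without TLR3wt replicate 2 to -0.08 without TLR3wt replicate 3. TLR3wt replicate 3 was the highest of the 6 mice for Junb and the lowest TLR3wt mouse for Jun, so the order of the TLR3wt mice was not shared by these subunits.

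The Fos side of AP-1 was close to the floor. Fos (probe set 10397346), whose protein dimerises with a Jun protein, was 5, 5 and 5.20 in TLR3-/- livers and 5.22, 5.01 and 5.29 in TLR3wt livers. It stood above the floor in 1 of 3 TLR3-/- and 3 of 3 TLR3wt mice, and the groups overlapped (difference -0.11 ± 0.10, SE, limma adjusted p = 0.672). It lay between -0.19 without TLR3wt replicate 2 and -0.05 without TLR3wt replicate 3. Atf3 (probe set 10361091), a stress-induced CREB family repressor whose promoter carries the CRE core shown above, was at 5 in all 6 mice and was not tested. The array thus gave no level and no fold for Atf3 in either genotype.

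Egr1 and Myc varied more between mice of a group than nearly all other probe sets. Egr1 (probe set 10454782), a zinc-finger factor induced by MAP kinase signals, was 5, 5.68 and 5.78 in TLR3-/- and 5.79, 5.93 and 5.20 in TLR3wt livers, and the groups overlapped over most of their range. The difference was -0.15 ± 0.27 (SE, 95% interval -0.81 to 0.51, limma adjusted p = 0.838). It ranged from -0.37 without TLR3wt replicate 3 to 0.09 without TLR3-/- replicate 1, the mouse at the floor. Myc (probe set 10424400), a driver of growth and ribosome production, was 6.39, 5 and 5 in TLR3-/- livers and 6.25, 5.24 and 6.01 in TLR3wt livers. The highest Myc value of the 6 mice was thus that of TLR3-/- replicate 1, while the other TLR3-/- mice were at the floor. The difference was -0.37 ± 0.45 (SE, 95% interval -1.46 to 0.72, limma adjusted p = 0.754). It was -0.83 without TLR3-/- replicate 1, and -0.14 without either of the other TLR3-/- mice. The pooled SD within groups was 0.68 for Myc, 0.45 for Jun and 0.41 for Egr1, above that of 99.7%, 98.3% and 97.7% of all tested probe sets.

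Btg2 stood above the floor in TLR3wt livers alone. Btg2 (probe set 10357875) encodes an antiproliferative cofactor of mRNA deadenylation and is a target of p53. It was at the floor in all 3 TLR3-/- mice and at 5.44, 5.19 and 5.71 in TLR3wt livers. The TLR3wt mean was at least 1.36-fold the TLR3-/- level, a bound set by the floor (difference -0.45 ± 0.13, SE, limma unadjusted p = 0.0129, adjusted p = 0.219). The floor hid the spread among TLR3-/- mice, so the SE and p do not include it. The same pattern, the floor in every TLR3-/- mouse and a value above it in every TLR3wt mouse, was seen in 79 of the tested probe sets (0.475%). With a lowest TLR3wt value of 5.19, the TLR3wt signal itself lay near the floor, and the difference lay between -0.57 without TLR3wt replicate 2 and -0.31 without TLR3wt replicate 3.

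Ier2 went the other way. Ier2 (probe set 10580183), which encodes a small nuclear protein induced by serum and growth factors, was 5.64, 5.63 and 5.50 in TLR3-/- and 5.12, 5.51 and 5.26 in TLR3wt livers. TLR3wt replicate 2 and TLR3-/- replicate 3 overlapped narrowly. The difference was 0.29 ± 0.11 (SE, 95% interval 0.03 to 0.56), a 1.23-fold higher mean in TLR3-/- livers (limma unadjusted p = 0.0331, adjusted p = 0.298), and it lay between 0.21 and 0.40 when 1 mouse was left out. Klf6 (probe set 10403352), a Kruppel-like factor induced in injured liver, was 5.57, 5.46 and 5.28 in TLR3-/- and 5.40, 5.52 and 5.69 in TLR3wt livers, and its groups overlapped (difference -0.10 ± 0.11, SE, limma adjusted p = 0.707). The Klf6 difference ranged from -0.17 without TLR3wt replicate 1 to -0.02 without TLR3-/- replicate 3.

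**Figure D2:**
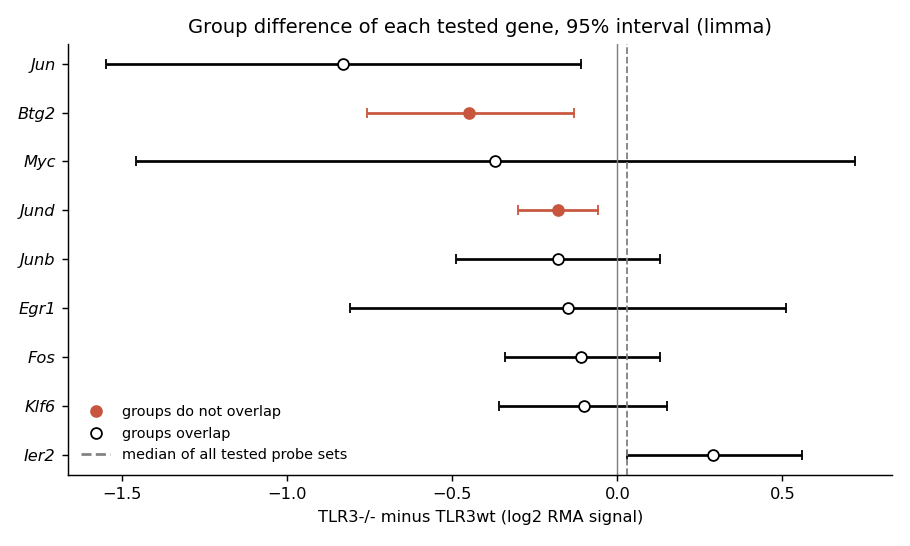
Difference between the group means (TLR3-/- minus TLR3wt, log2 RMA signal, horizontal axis) of the 9 tested genes with the 95% interval from limma, filled red where the groups do not overlap and open black where they do. The intervals of Jun, Btg2 and Jund lie below 0 and that of Ier2 above it, none of which passed after adjustment, and the dashed line marks the median of all tested probe sets, 0.03.

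The mice did not share 1 order across these genes. TLR3wt replicate 3 was the highest of the 6 mice for 5 of the 9 tested genes (Fos, Junb, Jund, Btg2 and Klf6) and the lowest TLR3wt mouse for Jun and Egr1. TLR3-/- replicate 1 was the highest of its group for 4 genes, Jun, Ier2, Klf6 and Myc. After each gene was centred on its mean over the mice, the mean of the 9 genes was 0.00, -0.17 and -0.18 in TLR3-/- replicates 1 to 3 and 0.19, 0.05 and 0.10 in TLR3wt replicates 1 to 3. TLR3-/- replicate 1 thus lay nearest to the TLR3wt mice. All 9 genes were above the floor in each TLR3wt mouse, against 6, 6 and 7 in TLR3-/- replicates 1 to 3.

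Jund, Ier2 and Junb lie on chromosome 8, as does Tlr3, with 73, 160 and 174 tested genes between them and Tlr3. Whether differences of genes on this chromosome come with the targeted allele or with its flanking sequence cannot be told apart here. The group means of the 3 genes differed in direction, with Jund and Junb lower and Ier2 higher. Maf, Mt1, Hmox1, Tat, Glg1 and Scoc, named below, also lie on chromosome 8, and the same limit holds for them.

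The list of other subunits that can enter AP-1 or related dimers held many genes at the floor. Of 14 listed genes 13 had a probe set of their own. Fosb, Fosl1, Batf, Batf2 and Maff were at the floor in all mice, and 8 were tested. None passed limma's adjusted threshold, and 2 reached an unadjusted p under 0.05, both lower (5.25% of all tested probe sets). Fosl2, which encodes the Fos-related protein Fra-2, was 5.46, 5.43 and 5.47 in TLR3-/- and 5.63, 6.03 and 5.81 in TLR3wt livers, with no overlap (difference -0.37, limma adjusted p = 0.218). Maf, a large Maf factor, had a difference of -0.16 and Jdp2, a dimerisation partner and repressor of Jun, one of -0.32 (limma adjusted p = 0.254 and 0.399). Mafg, a small Maf protein, had one of 0.11 (limma adjusted p = 0.504). The median of the 8 was -0.06.

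None of the other immediate-early genes passed limma's adjusted threshold, and most had a lower mean in TLR3-/- livers. Of 38 genes, 8 were at the floor in all mice (Egr2, Nr4a1, Nr4a2, Nr4a3, Ier3, Klf4, Cebpd and Arc) and 30 were tested, with a lower mean in TLR3-/- livers in 24 and a median difference of -0.24. A lower mean was seen in 41.2% of all tested probe sets. At an unadjusted p under 0.05, 9 were lower (5.25% of all tested probe sets) and 2 higher (9.21%). The groups did not overlap in 10, with 9 lower (7.04% of all tested probe sets) and 1 higher (13.0%). The smallest adjusted p was that of Ccn2, the gene of a secreted matrix-associated factor, at 6.23, 6.21 and 6.13 in TLR3-/- and 6.90, 7.0 and 6.68 in TLR3wt livers (difference -0.67, limma adjusted p = 0.0843). All 3 TLR3-/- mice lay below all TLR3wt mice for it.

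Dusp1 encodes a phosphatase that switches off the MAP kinases which induce Jun and Fos. It was 8.25, 7.80 and 7.80 in TLR3-/- and 9.12, 9.13 and 8.76 in TLR3wt livers, without overlap, at 48.3% of the TLR3wt signal (difference -1.05, limma adjusted p = 0.0994). Gadd45g, a stress sensor upstream of p38 and JNK, was 6.97, 5.40 and 5.62 against 7.62, 7.56 and 8.62, also without overlap (difference -1.94, limma adjusted p = 0.183). TLR3-/- replicate 1 was the highest of its group for Dusp1 and Gadd45g, as it was for Jun and Myc. The clock gene Per1, which hormones induce acutely, was at the floor in all TLR3-/- mice and 5.54, 6.00 and 5.37 in TLR3wt livers, at least 1.55-fold higher there (limma adjusted p = 0.180). As for Btg2, the floor hid the spread among TLR3-/- mice. Plk2, a stress-induced kinase of the polo family, was 6.52, 6.97 and 6.67 in TLR3-/- and 5.46, 6.19 and 6.31 in TLR3wt livers, the 1 gene of this list higher without overlap, while its relative Plk3 was 7.50, 6.29 and 6.62 against 8.77, 8.81 and 7.51 (limma adjusted p = 0.261 and 0.219). Both were named for their opposite directions after their values were seen.

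**Figure D3:**
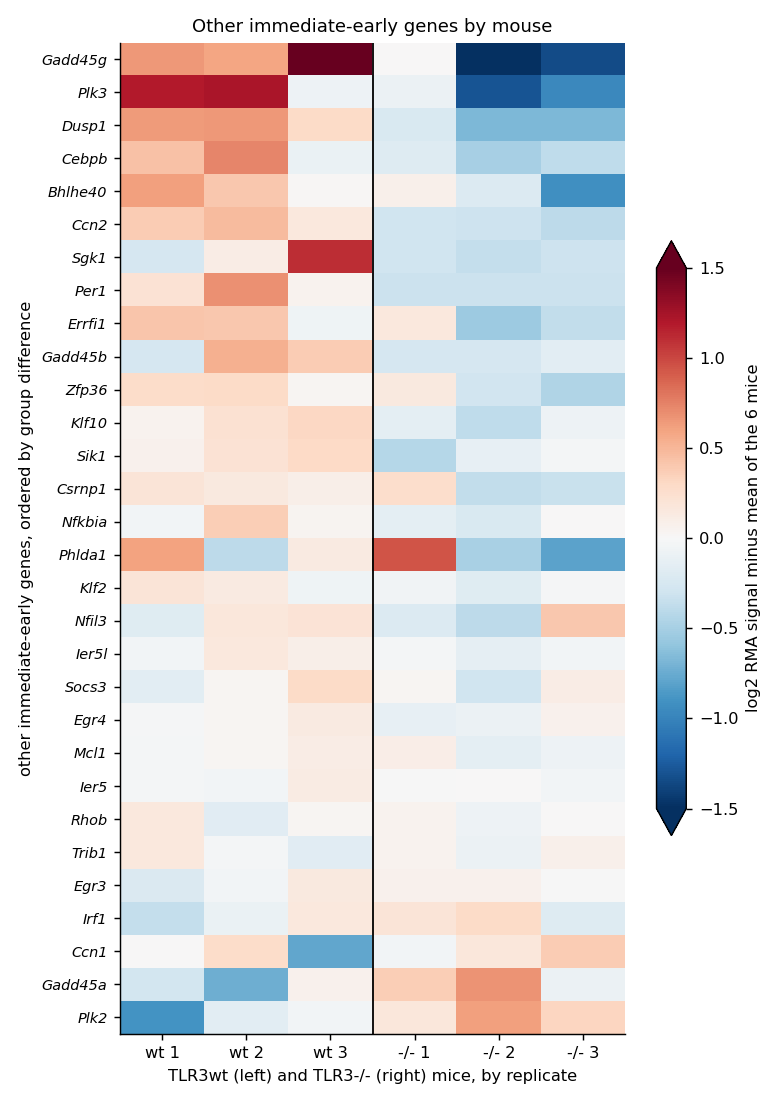
Log2 RMA signal minus the mean of the 6 mice (colour, capped at 1.5 on either side) for the 30 tested genes of the other immediate-early list, ordered by group difference, with the TLR3wt mice left of the line and the TLR3-/- mice right of it. Gadd45g, Plk3 and Dusp1 at the top are lower in TLR3-/- livers and Plk2 at the bottom higher, and TLR3-/- replicate 1 is closer to the TLR3wt mice than the other TLR3-/- mice are for Gadd45g, Plk3 and Dusp1.

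Genes of the MAP kinase cascade, which induces the immediate-early genes, were split in direction. Of 24 tested kinase genes 9 had a lower and 15 a higher mean in TLR3-/- livers (median 0.03), with none past limma's adjusted threshold. At an unadjusted p under 0.05, 3 were higher (9.21% of all tested probe sets). These were Map2k6 and Map2k3, the kinases of p38, and Map2k5, the kinase of ERK5, with differences of 0.52, 0.24 and 0.23 (limma adjusted p = 0.172, 0.175 and 0.274). Map2k6 was at the floor in TLR3wt replicates 2 and 3. Mapk9, which encodes JNK2, had a difference of 0.20.

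Of 17 tested receptor and ligand genes upstream of the kinases, 8 were lower and 9 higher (median 0.01), with none past the adjusted threshold. At an unadjusted p under 0.05, 1 was lower (5.25% of all tested probe sets) and 2 were higher (9.21%). Il6ra, the interleukin-6 receptor gene, was 7.42, 7.28 and 7.46 in TLR3-/- and 7.64, 8.17 and 8.15 in TLR3wt livers (difference -0.60, limma adjusted p = 0.187). Pdgfra and Met, receptors for platelet-derived and hepatocyte growth factor, had differences of 0.34 and 0.28, and Erbb3, a neuregulin receptor gene, one of 0.32. The ligand genes Egf, Ereg, Hbegf and Btc were at the floor in all mice.

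Of the 13 tested factors that act directly on immediate-early promoters, 6 were lower and 7 higher (median 0.00), with none past the adjusted threshold. At an unadjusted p under 0.05, 2 were lower (5.25% of all tested probe sets) and 2 higher (9.21%). SRF and its partner ELK4 form the complex on the serum response element of Fos and Egr1. Srf was 5.76, 5.84 and 5.72 in TLR3-/- and 5.95, 6.02 and 5.85 in TLR3wt livers, and Elk4 was 7.49, 7.48 and 7.49 against 7.29, 7.28 and 7.21. The groups of both were apart, in opposite directions (differences -0.17 and 0.22, limma adjusted p = 0.339 and 0.164). The MEF2 family gene Mef2d and the CREB coactivator gene Crtc2 had differences of -0.27 and 0.16.

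Feedback inhibitors other than Dusp1 were split, 9 lower and 10 higher of 19 tested (median 0.01), with none past the adjusted threshold. At an unadjusted p under 0.05, 2 were lower (5.25% of all tested probe sets) and 2 higher (9.21%). Spry4, a Sprouty inhibitor of receptor tyrosine kinase signals, was 5.65, 5.42 and 5.66 in TLR3-/- and 5, 5.10 and 5 in TLR3wt livers (difference 0.54, limma adjusted p = 0.0994). Tob1 and Tob2, relatives of Btg2 in the same antiproliferative family, both had a difference of -0.33 with groups that did not overlap (limma adjusted p = 0.212 and 0.157). Tob2 was at or near the floor in TLR3-/- livers (5, 5 and 5.09). Spred2, another inhibitor of the cascade, had a difference of 0.34.

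Among other Kruppel-like factors, the family of Klf6, 8 of 9 tested had a lower mean (median -0.05), against 41.2% of all tested probe sets. At an unadjusted p under 0.05, 2 were lower (5.25% of all) and 1 higher (9.21%), and none passed the adjusted threshold. Klf13 was 5.43, 5.57 and 5.47 in TLR3-/- and 5.88, 5.90 and 5.80 in TLR3wt livers (difference -0.37, limma adjusted p = 0.112). Klf15, a regulator of gluconeogenesis and amino acid breakdown, and Klf12, a repressor, had differences of -0.35 and 0.31, both without overlap. Klf9, which glucocorticoids induce, had one of -0.16.

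Of the genes known as AP-1 targets, many were at the floor and several were highest in 1 mouse. Of 16 with a probe set of their own, 8 were at the floor in all mice (Timp1, Plaur, Plau, Il6, Ccl2, Mmp3, Mmp9 and Mmp13). Of the 8 tested, 7 had a lower mean in TLR3-/- livers (median -0.50), against 41.2% of all tested probe sets. At an unadjusted p under 0.05, 4 were lower (5.25% of all tested probe sets), and none passed limma's adjusted threshold. Lcn2, the gene of a siderophore-binding acute-phase protein, was 5.26, 5.90 and 5.55 in TLR3-/- and 6.92, 7.34 and 10.19 in TLR3wt livers, and Mt1, a metallothionein gene, was 6.95, 6.64 and 6.56 against 7.25, 8.33 and 10.52. TLR3wt replicate 3 stood far above the other TLR3wt mice for both, and without it the differences went from -2.58 to -1.56 for Lcn2 and from -1.98 to -1.07 for Mt1. Hmox1, the haem oxygenase gene, and Cd44, a hyaluronan receptor gene, had differences of -0.66 and -0.33. Cd44 was at the floor in all TLR3-/- mice and near it in TLR3wt livers (5.05, 5.51 and 5.44). Many other signals also control the genes of this list.

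Partners, antagonists and targets of Myc had medians close to that of all tested probe sets. Of 12 tested partners and antagonists of Myc, 7 were lower and 5 higher (median -0.02). At an unadjusted p under 0.05, 1 was lower (5.25% of all tested probe sets). This was Max, the obligate partner of Myc, at 6.34, 6.48 and 6.50 in TLR3-/- and 6.80, 6.71 and 6.51 in TLR3wt livers (difference -0.23, limma adjusted p = 0.336). Mlxipl, which encodes the carbohydrate-response factor ChREBP, had a difference of 0.20, Mycl one of -0.15 and Mlxip one of -0.07. Of 20 tested Myc target genes 8 were lower and 12 higher (median 0.04). At an unadjusted p under 0.05, 1 was lower (5.25% of all tested probe sets) and 1 higher (9.21%). These were the cyclin gene Ccnd2 (-0.18) and the nucleolin gene Ncl (0.20), and Cdk4 and Tert had differences of 0.14 and 0.16. None of either list passed limma's adjusted threshold.

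**Figure D4:**
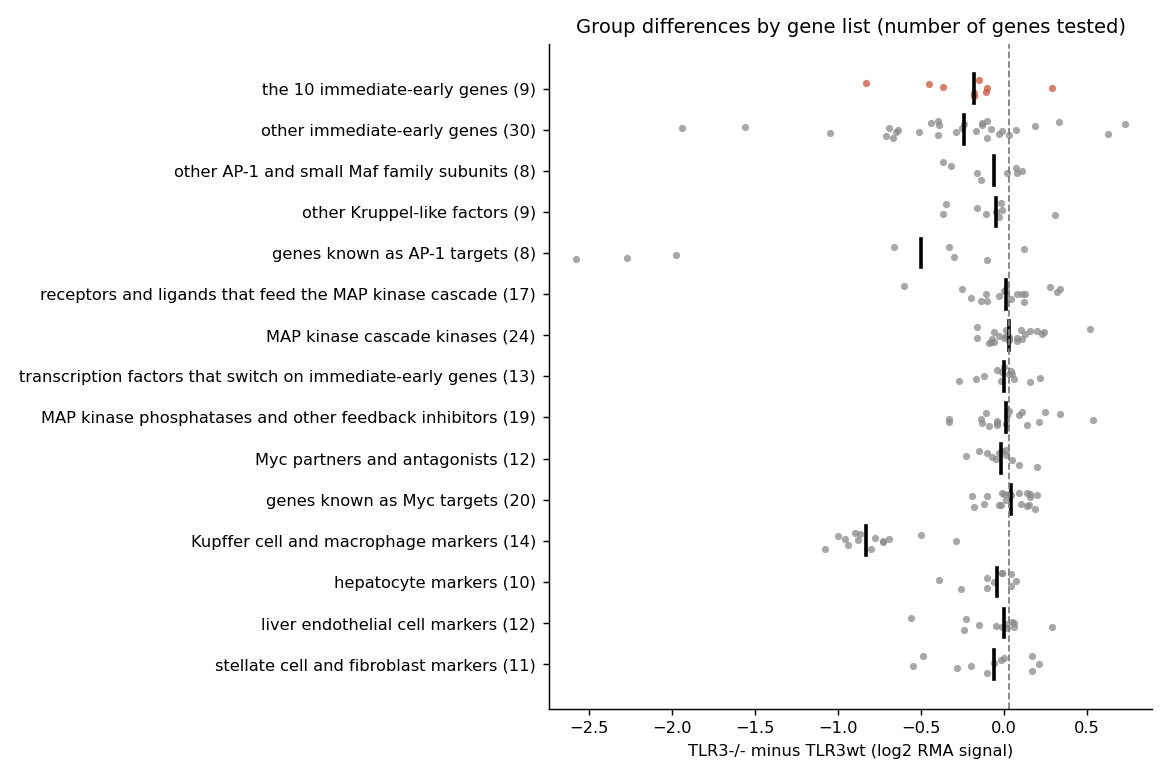
Difference between group means (TLR3-/- minus TLR3wt, log2 RMA signal, horizontal axis) of every tested gene in the lists with at least 8 tested genes, with the number tested in parentheses, the named immediate-early genes in red, a black line at the median of each list and a dashed line at the median of all tested probe sets (0.03). Of the lists drawn, the medians of the named set (-0.18), the other immediate-early genes (-0.24), the AP-1 targets (-0.50) and the Kupffer cell markers (-0.83) lie left of the dashed line by more than 0.1, and those of the kinases and Myc lists lie near it.

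The measured markers of Kupffer cells, the macrophages that reside in liver, had lower group means in TLR3-/- livers, with none past limma's adjusted threshold. All 14 had a lower mean in TLR3-/- livers (median -0.83), as did 41.2% of all tested probe sets, and none was at the floor in any mouse. The groups did not overlap in 13, against 7.04% of all tested probe sets in this direction. At an unadjusted p under 0.05 there were 13, against 5.25% of all tested probe sets in this direction. The sum of their linear signals was 1633 to 2583 in TLR3-/- and 2991 to 3996 in TLR3wt livers. Timd4 and Marco had differences of -0.90 and -1.08 (limma adjusted p = 0.0994 and 0.138), Adgre1 one of -1.00 and C1qc one of -0.94. Immediate-early genes are expressed in macrophages too, and the part of these cells in the differences of Jun, Btg2, Dusp1 and the rest was not tested. In whole liver, fewer cells of a type and less RNA per cell cannot be told apart.

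The other marker lists had medians between -0.06 and 0.00 where more than 2 genes were tested. Their counts at an unadjusted p under 0.05 stand beside 5.25% lower and 9.21% higher over all tested probe sets. Of 10 hepatocyte markers 7 were lower (median -0.04), with 2 at an unadjusted p under 0.05, the hormone-induced tyrosine aminotransferase gene Tat (-0.39) and Hnf4a (-0.26), beside Apoa1 (-0.10) and Trf (-0.10). Of 12 endothelial markers 6 were lower and 6 higher (median 0.00), with 2 lower at an unadjusted p under 0.05, Pecam1 (-0.24) and Lyve1 (-0.56), beside Fcgr2b (0.29) and Oit3 (-0.23). Of 11 stellate cell and fibroblast markers 7 were lower (median -0.06), with 2 at an unadjusted p under 0.05, Col3a1 (-0.55) and Col1a1 (-0.49), beside Col1a2 (-0.28) and Dcn (0.17). Of the erythroid markers Slc4a1 (-0.34) and Alas2 (-0.22) were tested. Of the cholangiocyte and lymphocyte markers only Sox9 (0.19) and Cd8a (-0.02) were. None of these passed limma's adjusted threshold.

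The genes whose profile over the 6 mice was most like the mean profile of the 5 named genes above the floor in every mouse were Ppip5k2, Man1a2, Cyth1, Glg1 and Scoc. Likeness was the root mean square difference of the centred log2 values, which was 0.0292 for Ppip5k2 and 0.0351 for Scoc, the nearest and the fifth of 10338 genes searched. The mean profile was 0.03, -0.12 and -0.21 in TLR3-/- replicates 1 to 3 and 0.12, 0.13 and 0.05 in TLR3wt replicates 1 to 3. Each of the 5 genes had a difference between -0.19 and -0.17 on the log2 scale, which follows from choosing them by this likeness. The mean profile is not a pattern shared by the named genes, since Jun had a difference of -0.83 and Ier2 one of 0.29.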

How the data were processed

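Total liver RNA of 6 mice, extracted with a phenol reagent per the labels' protocols, was measured on 1 array per mouse. The deposited values are log2 signals. Per the submitters' processing notes, the authors used Affymetrix Expression Console and its RMA method. The values have a floor of 5, and no source used here says what set it. Groups came from the sample titles. Gene names came from the array annotation, updated through gene identifiers; 21789 probe sets had 1 symbol, 1621 several and 12147 none.

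Genotypes were compared by limma (version 3.58.1, R version 4.3.3; lmFit, eBayes, two-sided, Benjamini-Hochberg, threshold 0.05). Probe sets with every value at the floor (18918) did not enter the fit, which left 16639; the number of arrays limits the precision. Each gene was represented by its probe set with the highest mean. The procedure was tested on simulated data. The text names the 10 genes, up to 4 genes per list with the smallest unadjusted p, and the 5 most alike genes; others are marked or come from counts of genes at the floor. The members, lists and motifs were chosen with earlier results of these data known or the sequences seen. Alternatives covered filters, scaling, array weights, an intensity trend, a replicate block and leaving out each mouse.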

Additional observations from a re-analysis of the deposited data

How the results depend on the processing

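The count of probe sets that passed limma's adjusted threshold, 31, was 0 with no filter on the floor (2018 at an unadjusted p under 0.05), 18 when every array had to be above the floor, 9 after quantile normalization once more, 14 with centred arrays and 0 to 13 when any 1 mouse was left out (0 in 3 of those fits, with 2203, 2577 and 1771 at an unadjusted p under 0.05). The count was 35 with array weights and 36 with an intensity trend. The cause of these changes was not tested, and the fits without a mouse also had fewer arrays. The replicate numbers did not pair the mice (correlations of same-numbered deviations 0.05, -0.01 and -0.06, with 1 of 6 samples correlating best with its own number), and a fit with the replicate block gave 4 calls. None of the 10 genes passed in any of these fits. The count of genes with a lower mean, 8 of 9, was 4 of 5 when every array had to be above the floor, since only those 5 were in the fit, and 7 to 8 when 1 mouse was left out. The median difference stayed between -0.21 and -0.17 in every alternative. Of 113 differences of the tested genes under these alternatives, 112 kept their sign, and that of Egr1, -0.37 to 0.09 when 1 mouse was left out, was 0.09 without TLR3-/- replicate 1. The floor limits what can be seen of Fos, Atf3, Egr1, Btg2 and Myc.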
